A study of Sus scrofa with 8 samples.

Results

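The genes described here are the nuclear genes of oxidative phosphorylation, the process by which mitochondria make ATP. They were taken by name: every transcript whose Entrez gene carried a pig symbol beginning with NDUFA, NDUFB, NDUFC, NDUFS, NDUFV, SDHA, SDHB, SDHC, SDHD, UQCR, COX4 to COX8, ATP5 or CYC1. The beginnings NDUFA and SDHA also take in assembly factors. This gave 75 genes with 98 transcripts, of 21064 genes with 24139 transcripts in the count tables. For each gene the transcript with the highest mean count was used, and 15 of the 75 genes had more than 1. Of these genes 35 belong to complex I, 3 to complex II, 2 to complex III, 10 to complex IV and 14 to complex V, and 11 encode assembly factors. The rule itself uses no difference between the groups, and the mean count over all libraries picked the transcript.

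Complexes I to IV form the respiratory chain in the inner mitochondrial membrane. Complex I takes electrons from NADH and complex II takes them from succinate, and both hand them to coenzyme Q. Complex III passes them to cytochrome c, and complex IV, cytochrome c oxidase, passes them to oxygen. Complexes I, III and IV pump protons as they work, and complex V, the ATP synthase, uses the return of the protons to make ATP. Some subunits are encoded in mitochondrial DNA. The annotation held no exons on the mitochondrial chromosome, 0 of the 13 mitochondrially encoded subunits matched a symbol, and they are not analysed here. The endometrium at this stage secretes proteins that feed the free-floating pig conceptuses, and it is being remodelled for their attachment.

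Poly(A) RNA of the uterine lining, the endometrium, was sequenced from 8 gilts (young female pigs) on day 14. All were German Landrace gilts before puberty whose cycle was set with 750 IU of PMSG and, 72 h later, 500 IU of hCG. The 4 pregnant gilts were inseminated with Pietrain semen 24 h and 36 h after hCG, and the 4 control gilts received the supernatant of centrifuged semen of the same boar. Tissue was taken without the muscle layer, in pregnant gilts from hyperaemic (reddened) zones, so pregnancy and the choice of zone cannot be told apart. RNA from the proximal, medial and distal parts of 1 horn was pooled, and each library is 1 animal.

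Total counts per library ran from 28035007 to 41016150. Levels are given as CPM, counts brought to a common library total with edgeR's TMM factors, in the order of replicates 1 to 4, and group values are means ± SD with n = 4. Differences are log2 fold changes of pregnant over control ± SE. A gene is said to rise or fall where edgeR's quasi-likelihood test gave a Benjamini-Hochberg adjusted p under 0.05 over all 18783 transcripts tested. All 75 genes passed the filter on low counts. Of these, 6 share exonic bases with a gene on the opposite strand (among them NDUFA1, NDUFA2, ATP5G3, ATP5F1 and SDHAF2). The kit did not mark the strand, so their reads cannot be told apart from the neighbour's.

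Of the 75 genes, 0 rose and 3 fell in pregnant endometrium, the complex I subunits NDUFC2 and NDUFA1 and the ATP synthase subunit ATP5D. The 3 make 4.0% of the genes, whereas 21.3% of all transcripts tested passed, 11.2% as higher and 10.1% as lower. Among well-expressed transcripts, those with an average log2 CPM of at least 4, 25.4% passed, and of the 53 oxidative phosphorylation genes at that level 3 passed (5.66%). At an unadjusted p under 0.05, edgeR gave 9 lower genes and 1 higher one, which is 13.3% of the set beside 34.3% of all transcripts. The log2 differences ran from −0.67 to 0.50 with a median of −0.10, beside −0.02 for all transcripts. Of the 75 genes, 53 lay below 0 (70.7%, beside 52.1% of all transcripts). Among the well-expressed genes of the set 45 lay below 0 (84.9%, beside 57.0% of well-expressed transcripts). Their median difference was −0.17, beside −0.06. In these bulk samples fewer cells of a type and less RNA per cell cannot be told apart.

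**Figure D1:**
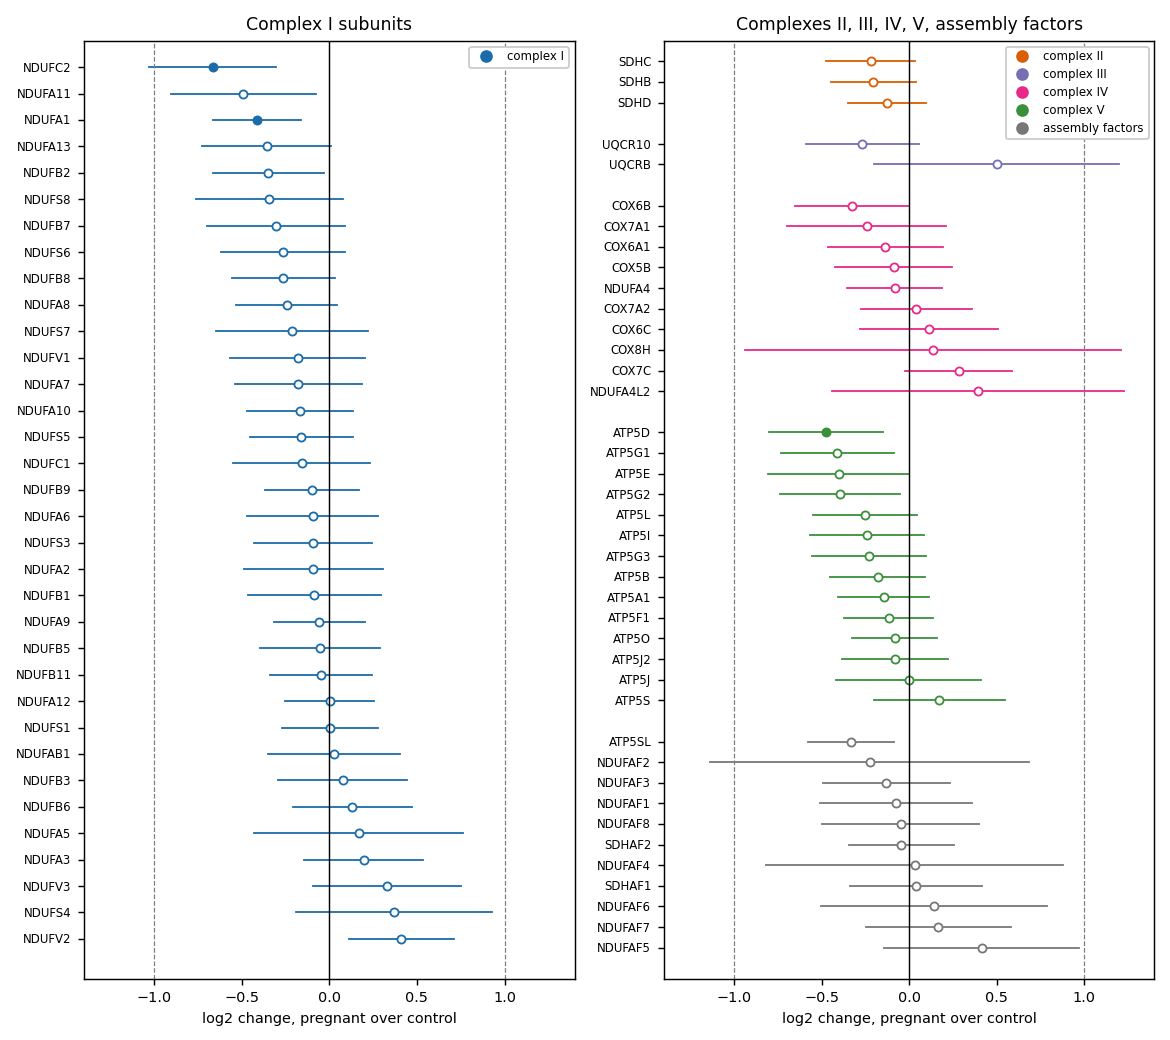
Log2 change of pregnant over control (horizontal axis) with its 95% interval as a line for 74 of the 75 genes, complex I at the left and the other genes at the right, with dashed lines at a 2-fold change. Filled points are the 3 genes that passed, open points did not pass, and 52 of the 74 points lie to the left of 0.

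The differences were small and were measured with some precision. No gene of the set differed by more than 1 on the log2 scale, as against 14.0% of all transcripts and 10.1% of the well-expressed ones. The median SE was 0.154, beside 0.203 for all transcripts and 0.151 for the well-expressed ones. The set's median average log2 CPM was 5.19, beside 3.78 for all transcripts. For 70 of the 75 genes (93.3%) the 95% interval of the difference lay within a 2-fold change in either direction, which held for 61.8% of all transcripts and for 78.4% of the well-expressed ones. The exceptions were NDUFC2, UQCRB, COX8H, NDUFA4L2 and NDUFAF2. Within a 1.5-fold change the interval lay for 47 of the 75 genes (62.7%), beside 29.3% of all transcripts and 46.4% of the well-expressed ones.

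As a share of all counts in a library, the 75 genes held 0.488%, 0.427%, 0.473% and 0.435% in the control libraries and 0.397%, 0.348%, 0.382% and 0.338% in the pregnant ones. These shares did not overlap between the groups. On the TMM scale their summed levels did, at 5055, 3978, 4397 and 4067 CPM in control libraries and 4075, 3731, 4155 and 3382 CPM in pregnant ones. Scaling by total count alone, in place of TMM, moved the median log2 difference of all transcripts by −0.13. With that scaling 14 of the 75 genes fell (18.7%, beside 17.5% of all transcripts that were lower), 0 rose, and the median of the 75 was −0.22 beside −0.15 for all transcripts. The number of genes called lower in this set thus depended on the scaling.

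A pair of libraries stood at the ends of the set. Control replicate 1 was the highest of the 8 libraries for 39 of the 75 genes (52.0%, beside 21.3% of all transcripts), and pregnant replicate 4 was the lowest for 38 (50.7%, beside 16.6%). Control replicate 1 was also the lowest library for 13 of the 75 genes (17.3%, beside 22.9% of all transcripts). The median log2 distance from the gene's mean was 0.21 in control replicate 1 and −0.23 in pregnant replicate 4, and between −0.10 and 0.13 in the other libraries. Over all transcripts the same median lay between −0.02 and 0.04. Control replicate 1 and pregnant replicate 4 were picked from these same genes. Leaving both out was thus bound to draw the set's differences upwards as a group, and is no independent check of the calls. With both left out, a setting chosen after seeing the data, there were 0 lower genes and 1 higher one, NDUFA3, a small accessory subunit of complex I. The median difference was then −0.02, as it was for all transcripts, and 39 of the 75 genes lay below 0, while 15.6% of all transcripts passed with these fewer libraries. Several differences that did not pass were closer to 0 without control replicate 1. The log2 difference was then −0.27 in place of −0.49 for NDUFA11, −0.18 in place of −0.32 for COX6B, −0.14 in place of −0.27 for UQCR10, −0.23 in place of −0.40 for ATP5G2, −0.12 in place of −0.23 for ATP5G3 and 0.29 in place of 0.50 for UQCRB. NDUFV1 moved from −0.18 to −0.0054 and COX7A1 from −0.24 to −0.10. Others moved away from 0 without control replicate 1, among them NDUFA3 from 0.20 to 0.33, NDUFA4L2 from 0.39 to 0.88 and ATP5S from 0.17 to 0.27. Leaving out pregnant replicate 4 alone gave −0.060 for NDUFV1, −0.092 for COX7A1 and −0.14 for ATP5G3.

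**Figure D2:**
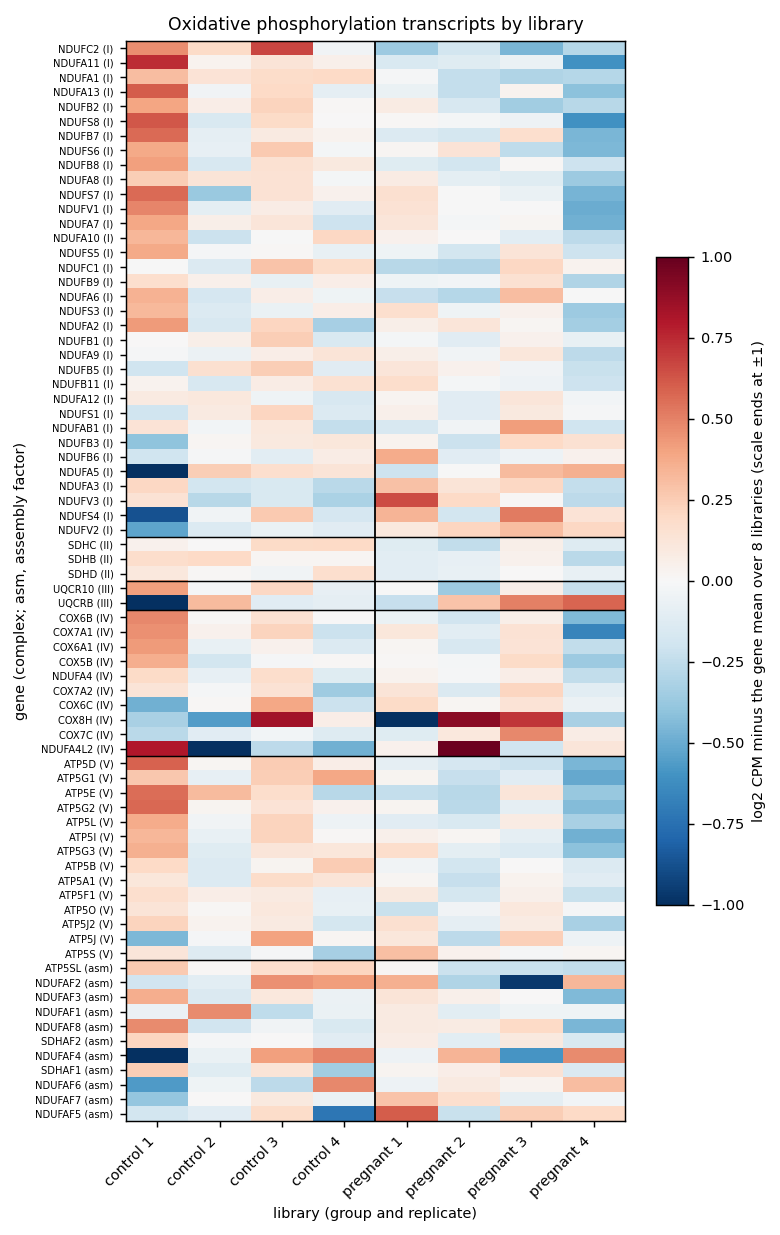
Log2 CPM of 74 of the 75 genes in each of the 8 libraries, as the distance from the gene's mean over the libraries, ordered by complex. Control replicate 1 is the highest library for 38 of these genes and pregnant replicate 4 the lowest for 37.

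Complex I, the NADH dehydrogenase, had 2 of 35 genes lower and 0 higher, with a median difference of −0.10. NDUFC2 (Entrez 100513030; Sscrofa10.2 chromosome 9, 13586628 to 13592955), an accessory subunit of the membrane arm, stood at 31.8, 26.2, 36.5 and 22.4 CPM in control and 17.8, 20.3, 16.7 and 18.9 CPM in pregnant endometrium. Every pregnant library lay below every control library. NDUFC2 fell by 0.67 on the log2 scale (SE 0.16, 95% interval −1.03 to −0.30, adjusted p = 0.0152), to 0.630 of the control level. It passed under each of the 16 other settings of the test, with an adjusted p between 0.00217 and 0.0494, but not without both control replicate 1 and pregnant replicate 4 (log2 difference −0.62, adjusted p = 0.0714).

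NDUFA1 (Entrez 100515069; chromosome X, 113388189 to 113392686), a small accessory subunit that complex I needs for its assembly, was measured at 44.7, 39.7, 40.99 and 41.3 CPM in control libraries. The pregnant libraries had 35.6, 30.5, 29.3 and 29.5 CPM, all below the control values. NDUFA1 fell by 0.41 on the log2 scale (SE 0.11, 95% interval −0.67 to −0.16, adjusted p = 0.0249). It is 1 of the 6 genes that share exonic bases with an opposite-strand gene. The call was lost when control replicate 1 or 3 or pregnant replicate 2, 3 or 4 was left out, with adjusted p-values of 0.0558, 0.0569, 0.0751, 0.0645 and 0.0731, and without both control replicate 1 and pregnant replicate 4 (adjusted p = 0.0957).

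In the other direction, NDUFV2 (Entrez 100037991; chromosome 6, 92155776 to 92189211), a core subunit of the NADH-oxidising module, had 16.1, 21.1, 22.0 and 21.4 CPM in control and 24.9, 26.9, 28.7 and 26.6 CPM in pregnant libraries. All 4 pregnant values lay above the control values. The log2 difference was 0.41 ± 0.14 (95% interval 0.11 to 0.71) and missed the threshold, with an adjusted p of 0.0543 in edgeR. It passed under 4 of those 16 settings, among them DESeq2 (adjusted p = 0.0143) and limma voom (adjusted p = 0.0487). NDUFV1, which pairs with NDUFV2 in that module and binds NADH, had a difference of −0.18 ± 0.17 (adjusted p = 0.4998), from 132, 88.0, 98.9 and 87.1 CPM in control to 104, 94.0, 93.6 and 66.7 CPM in pregnant libraries.

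The core subunits of complex I, which carry the electron path and are shared with bacteria, gave 0 of 7 calls and a median difference of −0.09. The accessory subunits gave 2 of 28 and a median of −0.10. NDUFS1, the largest subunit of the complex, had 37.6, 45.8, 50.1 and 39.2 CPM in control and 44.7, 39.8, 46.0 and 42.8 CPM in pregnant libraries. Its ranges overlapped, and its difference was 0.00 ± 0.12 (95% interval −0.27 to 0.28).

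Complex II, succinate dehydrogenase, is also an enzyme of the citrate cycle and has no mitochondrially encoded subunit. SDHA, its flavoprotein, is not analysed here. The iron-sulphur subunit SDHB had 61.2, 62.1, 54.8 and 54.99 CPM in control and 50.5, 51.2, 55.7 and 44.9 CPM in pregnant libraries, a difference of −0.20 ± 0.11 (95% interval −0.45 to 0.04, adjusted p = 0.219). For the membrane anchors, SDHC had 37.7, 36.8, 41.8 and 42.1 CPM against 33.6, 30.9, 38.0 and 33.5 CPM, and SDHD had 54.0, 50.3, 48.9 and 56.2 CPM against 46.5, 47.6, 50.1 and 47.4 CPM. Their differences were −0.22 ± 0.11 and −0.13 ± 0.10, with adjusted p-values of 0.205 and 0.407. Each of the 3 genes overlapped between groups and none passed. The summed level of the 3 ran from 145.5 to 153 CPM in control and from 126 to 144 CPM in pregnant libraries, without overlap. This sum was not tested. The sum of complex V was also separated, but barely, with a control minimum of 1784.75 CPM and a pregnant maximum of 1784.59 CPM. The sums of the other complexes and of the assembly factors overlapped. Among all single transcripts tested, 12.9% were separated downwards.

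Complex III was covered by 2 genes. UQCR10, a small membrane subunit, had 60.7, 45.3, 52.7 and 43.2 CPM in control and 45.5, 35.6, 47.8 and 39.0 CPM in pregnant libraries. The ranges overlapped, and the difference was −0.27 ± 0.15 (95% interval −0.59 to 0.06, adjusted p = 0.228). UQCRB, which takes part in binding coenzyme Q, was low, at 1.56, 4.64, 3.45 and 3.49 CPM against 3.18, 4.55, 5.29 and 5.58 CPM. Its difference of 0.50 ± 0.32 was the highest of the 75 and had a wide interval, from −0.20 to 1.20. CYC1, UQCRC1, UQCRC2 and UQCRFS1, among them the subunits that carry the haem of cytochrome c1 and the Rieske iron-sulphur centre, had no matching row and are not analysed here.

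Complex IV, cytochrome c oxidase, had 0 of 10 genes changed, a median difference of −0.02 and 5 genes below 0. COX6B, which faces the space between the membranes where cytochrome c docks, was furthest below 0. It had 141, 102, 112 and 101 CPM in control and 96.4, 88.6, 105 and 74.4 CPM in pregnant libraries, and the difference was −0.32 ± 0.15 (adjusted p = 0.147). COX6A1, the form of subunit 6A found outside heart and skeletal muscle, had 255, 181, 196 and 172 CPM against 192, 169.9, 209 and 161 CPM. These ranges overlapped, with a difference of −0.14 ± 0.15 (95% interval −0.46 to 0.19). COX6A2, COX6B2, COX8A, COX7A2L and the subunit 4 genes were not matched and are not analysed here.

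Subunits of complex IV come in alternative forms whose use differs between tissues. COX7A1 is the form typical of heart and skeletal muscle and is also found in smooth muscle, and COX7A2 is the form of most other tissues. COX7A1 had 20.7, 15.5, 17.6 and 12.98 CPM in control and 16.2, 14.0, 16.7 and 9.52 CPM in pregnant libraries (log2 difference −0.24 ± 0.21, adjusted p = 0.440). COX7A2 had 52.7, 47.8, 53.4 and 37.6 CPM against 52.6, 43.6, 56.0 and 44.7 CPM (0.04 ± 0.14, adjusted p = 0.876). Neither differed beyond its spread.

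Within each library, the count of COX7A1 as a percentage of the count of COX7A2, not scaled by length, was 39.2%, 32.6%, 32.98% and 34.5% in control and 30.9%, 32.1%, 29.8% and 21.3% in pregnant gilts. The groups did not overlap, although 32.6% and 32.1% are close. The mean log2 ratio was −1.53 ± 0.12 in control and −1.83 ± 0.27 in pregnant libraries (SD, n = 4), a difference of −0.30. A two-sided exact permutation test over the 70 splits gave p = 0.0286, the smallest it can give, and 0.114 after adjustment over the 4 isoform ratios computed. Without pregnant replicate 4 the difference was −0.17 (exact permutation p = 0.0857), and without control replicate 1 as well it was −0.11 (exact permutation p = 0.1, the smallest that this size allows). Of 10 smooth muscle and pericyte markers 4 fell, and their summed level ran from 997 to 1418 CPM in control and from 697 to 1040 CPM in pregnant libraries. Their part in the ratio was not tested.

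NDUFA4 was first counted with complex I and is now placed in complex IV, and NDUFA4L2 is its hypoxia-inducible relative. NDUFA4 had 84.6, 69.9, 83.4 and 68.0 CPM in control and 75.9, 73.5, 77.4 and 62.3 CPM in pregnant libraries (log2 difference −0.08 ± 0.12, adjusted p = 0.678). NDUFA4L2 was the most variable control gene, at 18.8, 5.42, 8.99 and 7.73 CPM, and had 11.1, 21.3, 9.43 and 11.7 CPM in pregnant libraries (0.39 ± 0.38, adjusted p = 0.499). The ranges overlapped for both. NDUFA4L2 counts were 22.2%, 7.78%, 10.8% and 11.4% of NDUFA4 counts in control and 14.7%, 29.0%, 12.2% and 18.9% in pregnant libraries, a log2 difference of 0.55 with an exact permutation p of 0.229. The NDUFA4L2 difference rested on single libraries: it was 0.88 without control replicate 1 (adjusted p = 0.0737), 0.18 without control replicate 2 and 0.076 without pregnant replicate 2. The ratio moved in the same way, to 0.84, 0.34 and 0.31.

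**Figure D3:**
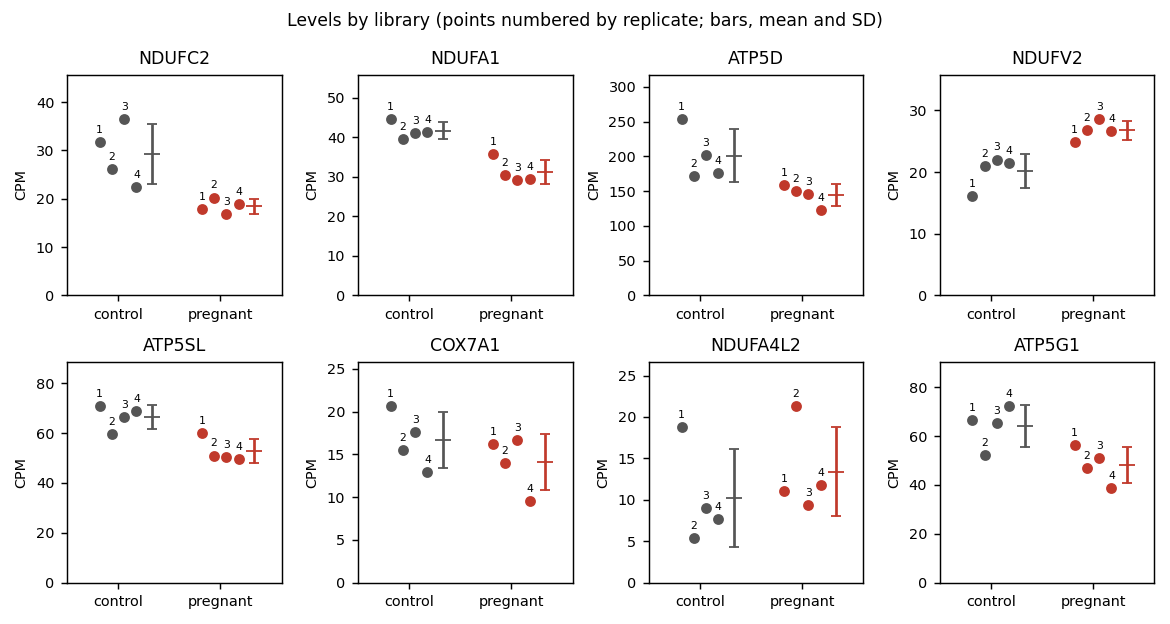
CPM on linear axes from 0 in each control and pregnant library for 8 genes, with points numbered by replicate and, beside them, the group mean ± SD (n = 4). NDUFC2, NDUFA1 and ATP5D are lower in every pregnant library than in every control library, NDUFV2 is higher in every one, and the groups overlap for ATP5SL, COX7A1, NDUFA4L2 and ATP5G1.

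Complex V, the ATP synthase, had 1 of 14 genes lower and 0 higher, with 13 of the 14 below 0 and a median difference of −0.20. ATP5D (Entrez 100523423; chromosome 2, 77782539 to 77784845), the delta subunit of the central stalk, now named ATP5F1D, had 254, 171, 201 and 176 CPM in control and 159, 150.5, 145 and 123.04 CPM in pregnant libraries. All pregnant values lay below the control values, and control replicate 1 was well above the other controls. ATP5D fell by 0.47 on the log2 scale (SE 0.15, 95% interval −0.80 to −0.15, adjusted p = 0.0428), to 0.720 of the control level. The call was lost without control replicate 1 or 3 (adjusted p = 0.105 and 0.0874), without pregnant replicate 1, 2, 3 or 4 (0.054, 0.0869, 0.0825 and 0.121), with DESeq2-type size factors in edgeR (0.0524), without the low-count filter (0.0588), and without both control replicate 1 and pregnant replicate 4 (−0.26, adjusted p = 0.167).

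Of the 4 genes analysed of the catalytic head and its stalk, ATP5D was the 1 that passed, and their median difference was −0.29. ATP5C1 and ATP5H, also of complex V, had no row in the counts and are not analysed here. ATP5B, the beta subunit that holds the catalytic sites, had 457, 364, 407 and 477 CPM in control and 389, 352, 399.7 and 363 CPM in pregnant libraries. Its ranges overlapped, with a difference of −0.18 ± 0.12 (95% interval −0.45 to 0.09, adjusted p = 0.324). ATP5A1, the alpha subunit, had 299.6, 251, 314 and 302 CPM against 279.9, 236, 284 and 256 CPM, a difference of −0.15 ± 0.12 (95% interval −0.41 to 0.12, adjusted p = 0.419). Among the stalk and membrane subunits 0 of 7 passed, with a median difference of −0.08. ATP5S, now DMAC2L, was the 1 gene grouped with complex V that lay above 0, at 0.17 ± 0.17 (adjusted p = 0.509), from 7.29, 6.14, 6.64 and 5.33 CPM in control to 8.25, 6.92, 6.65 and 6.80 CPM in pregnant libraries.

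The c ring, which turns as protons pass, is built from a single mature protein encoded by ATP5G1, ATP5G2 and ATP5G3, genes that differ in the part cut off on import. None of the 3 passed, and their median difference was −0.40. ATP5G1 had 66.7, 52.3, 65.3 and 72.3 CPM in control and 56.2, 47.1, 51.2 and 38.8 CPM in pregnant libraries, a difference of −0.41 ± 0.15 (adjusted p = 0.0702). ATP5G2 had 158, 108.29, 117 and 109.7 CPM against 108.25, 88.0, 99.9 and 78.6 CPM, a difference of −0.40 ± 0.15 (adjusted p = 0.0944), and its groups were separated by no more than the step from 108.29 to 108.25 CPM.

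ATP5G3, which shares exonic bases with an opposite-strand gene, had 138, 99.5, 117 and 117 CPM in control and 122, 101, 98.2 and 81.1 CPM in pregnant libraries, a difference of −0.23 ± 0.15 (adjusted p = 0.303). The log2 ratio of ATP5G1 to ATP5G3 differed by −0.18 between the groups, and that of ATP5G2 to ATP5G3 by −0.15. The two-sided exact permutation p-values were 0.0571 and 0.143, or 0.114 and 0.190 adjusted over the 4 ratios, so a different balance of the 3 genes was not shown.

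Over the whole set, 5 genes had all 4 pregnant values below all 4 control values, namely NDUFC2, NDUFA11, NDUFA1, ATP5D and ATP5G2. That is 6.67% of the set, and among all transcripts 12.9% were separated in this way. NDUFV2 was the 1 gene separated upwards, where 13.2% of all transcripts were. NDUFA11, a membrane-arm accessory subunit chosen here after its values were seen, had 53.9, 33.2, 35.4 and 33.6 CPM in control and 29.2, 29.7, 30.9 and 21.3 CPM in pregnant libraries, a difference of −0.49 ± 0.19 (adjusted p = 0.0882).

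Assembly factors build the complexes and do not stay in them. Of the 11 tested, 0 passed and the median difference was −0.05. ATP5SL, now DMAC2, a factor for the membrane arm of complex I in spite of its older name, had 70.8, 59.6, 66.2 and 68.7 CPM in control and 59.8, 51.0, 50.6 and 49.7 CPM in pregnant libraries. The lowest control and the highest pregnant library overlapped slightly, and the difference was −0.33 ± 0.11 (95% interval −0.58 to −0.08, adjusted p = 0.0579). The other 2 transcripts of ATP5SL, which share exons with it, did pass, with an adjusted p of 0.043 each. NDUFAF1, a complex I assembly factor, had 5.36, 7.76, 4.68 and 5.33 CPM in control and 5.95, 5.17, 5.43 and 5.43 CPM in pregnant libraries (−0.07 ± 0.20). NDUFAF5, an enzyme that modifies a core subunit of complex I, had 3.46, 3.62, 4.45 and 2.38 CPM against 5.98, 3.37, 4.67 and 4.52 CPM (0.41 ± 0.25, adjusted p = 0.277).

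Levels between genes were compared per kilobase of transcript. In control libraries COX6A1 was the highest of the 75 at 363 CPM per kb, and NDUFAF2, an assembly factor, the lowest at 0.416. The median was 38.7 CPM per kb in complex I, 55.7 in complex II, 107 in complex IV and 120 in complex V, and 6.71 among assembly factors. Within complex I the control levels ran from 2.79 for NDUFA5 to 129 for NDUFA13. ATP5B, at 237 CPM per kb, was the highest of complex V, and ATP5S the lowest at 3.02. COX7A1 stood at 50.9 and COX7A2 at 101 CPM per kb in control, and at 43.0 and 104 in pregnant libraries. COX8H, the muscle-type subunit 8, stood at 3.71 CPM per kb in control libraries. Levels per length thus differed widely within a complex. These transcripts are short, with a median length of 862 bases beside 1511.5 over all genes, and a per-length level is less exact for short transcripts. The ranking also rests on the lengths of the deposited models. ATP5E, at 354 CPM in control against 201 for COX6A1, has a model of 2056 bases and stood at 172 CPM per kb.

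**Figure D4:**
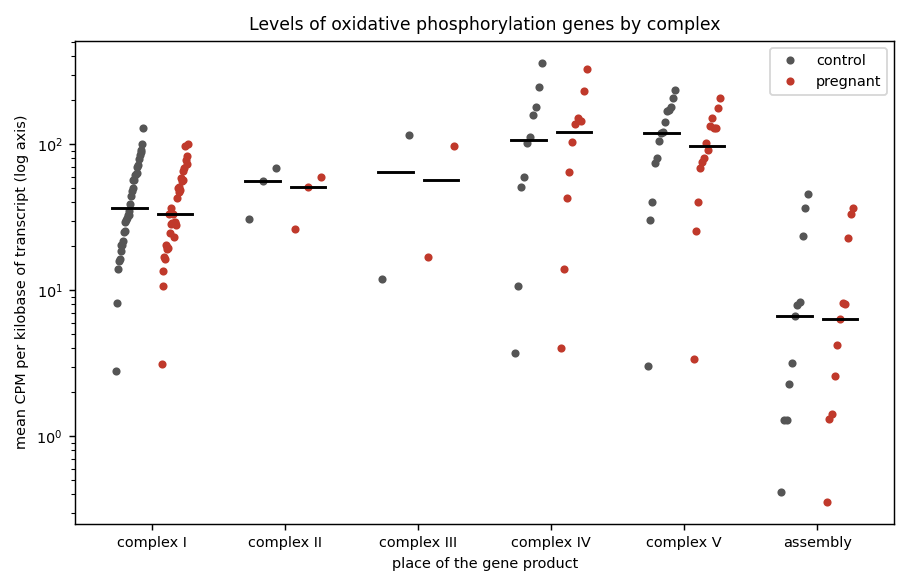
Mean CPM per kilobase of transcript (vertical log axis) of 74 of the 75 genes by complex, control and pregnant side by side, with black lines at the medians. Assembly factors lie lowest, with a control median of 6.71, and complexes IV and V have the highest medians among the groups of 10 or more genes.

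The spread between animals of a group was described by the coefficient of variation. The coefficient of variation over the 4 control libraries had a median of 15.4%, from 5.12% for NDUFA1 to 57.6% for NDUFA4L2, and over the 4 pregnant libraries a median of 13.5%, up to 58.9% for COX8H. Over all transcripts, whose median average log2 CPM was lower (3.78 beside 5.19), the medians were 20.4% and 16.8%.

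Genes that build, feed or surround the respiratory chain were read from further lists of named genes. Of 9 complex I assembly genes outside the name rule, 1 rose, TMEM70, a membrane protein needed for complex I and ATP synthase assembly (0.59 ± 0.16, adjusted p = 0.0268). Among 10 complex IV assembly genes COX10, which makes the haem A precursor, fell (−0.48 ± 0.15, adjusted p = 0.0399). The 3 ATP synthase assembly genes and the single complex III one did not pass. Of 15 genes of coenzyme Q synthesis and binding, cytochrome c and the electron transfer flavoproteins, 1 rose and 2 fell. COQ10B, a coenzyme Q-binding protein, rose from 6.56 ± 2.45 to 15.2 ± 2.03 CPM (1.21 ± 0.26, adjusted p = 0.0070). PDSS1, which makes the tail of coenzyme Q, and COQ9, a factor of its synthesis, fell by 0.63 and 0.35 on the log2 scale (adjusted p = 0.0229 and 0.0423).

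The citrate cycle and pyruvate entry list had 3 higher and 3 lower genes of 25, with a median of −0.04. OGDH, a subunit of the oxoglutarate dehydrogenase complex, fell from 724 ± 184 to 425 ± 37.7 CPM (−0.77 ± 0.19, adjusted p = 0.0139). PDK3, a kinase that inhibits pyruvate dehydrogenase, rose by 0.70 ± 0.17 (adjusted p = 0.0131), and SUCLA2, a subunit of succinyl-CoA synthetase, by 0.69 ± 0.17 (adjusted p = 0.0146). These 3 genes were picked from those that passed. Over all 25 genes the median size of the log2 difference, whatever its sign, was 0.18, beside 0.20 for the 14 genes of complex V. No test compared the lists.

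Mitochondrial ribosomal proteins, which translate the mitochondrially encoded subunits, had 0 of 65 higher and 2 lower, with a median of −0.02. MRPS26 fell from 100.8 ± 18.6 to 52.2 ± 10.8 CPM (−0.95 ± 0.18, adjusted p = 0.0035) and MRPL50 by 0.87 on the log2 scale (adjusted p = 0.0093). Of 19 genes of mitochondrial protein import 0 passed, with a median of 0.00. Among 15 regulators of mitochondrial biogenesis NFE2L2, a transcription factor of the oxidant response, rose from 123.4 ± 14.8 to 264 ± 19.4 CPM (adjusted p = 0.0002). PPARGC1B, a coactivator of mitochondrial genes, fell from 15.8 ± 6.74 to 7.85 ± 2.58 CPM (adjusted p = 0.0408), and TWNK, the mitochondrial DNA helicase, by 0.37 on the log2 scale (adjusted p = 0.0485).

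Some single genes elsewhere in mitochondrial metabolism had larger rises. Of 7 carriers and porins 1 rose and 1 fell (28.6% passing, beside 21.3% of all transcripts), with a median log2 difference of −0.18. CKMT1A, mitochondrial creatine kinase, rose from 3.18 ± 0.174 to 19.0 ± 12.3 CPM (2.57 ± 0.41, adjusted p = 0.0015), and VDAC1, the main porin of the outer membrane, fell from 89.5 ± 7.85 to 68.3 ± 3.19 CPM (adjusted p = 0.0243). Of 11 oxidant defence and uncoupling genes 2 rose and 1 fell (27.3% passing), with a median log2 difference of −0.005. SOD2, the superoxide dismutase of the mitochondrial matrix, rose from 15.7 ± 6.42 to 59.3 ± 6.47 CPM (1.92 ± 0.24, adjusted p = 0.0003), and UCP2, an inner membrane carrier, from 9.91 ± 2.23 to 29.1 ± 6.39 CPM (adjusted p = 0.0005). PRDX3, a mitochondrial peroxidase, fell by 0.38 on the log2 scale (adjusted p = 0.0365).

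Glycolysis, the route to ATP outside mitochondria, had 4 higher and 4 lower genes of 17, with a median of −0.06. PFKFB3, which makes the activator of phosphofructokinase, rose from 15.9 ± 3.37 to 60.0 ± 16.9 CPM (1.91 ± 0.22, adjusted p = 0.0002), while PGAM1, phosphoglycerate mutase, fell from 141 ± 10.0 to 94.4 ± 8.51 CPM (adjusted p = 0.0039) and PFKM, the muscle form of phosphofructokinase, by 0.91 on the log2 scale (adjusted p = 0.0112). Among 18 hypoxia-induced genes there were 5 that rose and 0 that fell, with a median of 0.31. BNIP3, a mitophagy receptor, rose from 56.6 ± 7.94 to 92.0 ± 7.26 CPM (adjusted p = 0.0027), and LDHA, which turns pyruvate into lactate and belongs to both lists, from 34.7 ± 5.90 to 53.3 ± 7.90 CPM (adjusted p = 0.0184). ANKRD37 and KDM3A rose by 1.01 ± 0.25 and 0.64 ± 0.17 (adjusted p = 0.0147 and 0.0209). NDUFA4L2, the hypoxia-inducible gene of the set, did not pass.

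**Figure D5:**
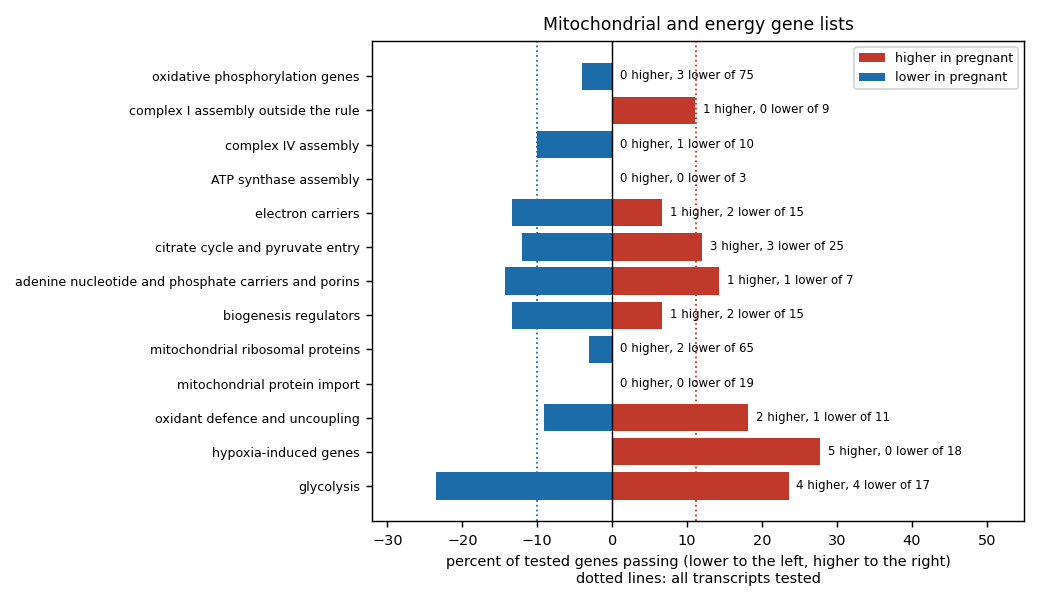
Percentage of the tested genes of each list that passed as lower (bars to the left) or higher (bars to the right) in pregnant endometrium, with the counts written beside them, for lists with at least 3 tested genes. Dotted lines mark the 10.1% and 11.2% of all transcripts, and the oxidative phosphorylation bar reaches 4.0% on the lower side alone.

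Markers of cell types moved between the groups. The 8 uterine markers were detected in both groups, and 1 rose and 2 fell. All 12 T and cytotoxic cell markers rose, from summed levels of 28.7 to 74.4 CPM in control to between 149.7 and 237 CPM in pregnant libraries. Markers of macrophages and dendritic cells rose in 8 of 9 and fell in 1, and their sum ran from 377 to 687 CPM in control and from 1121 to 1478 CPM in pregnant libraries. Of 10 epithelial markers 1 rose and 4 fell, with sums from 2482 to 3799 CPM in control and from 1913 to 2605 CPM in pregnant libraries. Of 9 stromal markers 2 rose and 2 fell, with a median log2 difference of 0.02 and 5 of the 9 above 0. Their sums, to which the most abundant markers add most, did not overlap, at 24891 to 29638 CPM against 16249 to 23769 CPM. Blood vessel markers rose in 2 of 9, striated muscle markers in 1 of 6 and conceptus markers in 1 of 4 tested, and none of these fell. The 9 ciliated cell and 3 tested erythrocyte markers did not pass. The part of these shifts in the levels of the 75 genes was not tested.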

How the data were processed

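Endometrial RNA of 4 control and 4 pregnant gilts was sequenced, and the deposited tables hold unnormalised counts of reads for every transcript, as their file headers state. CASAVA 1.6, TopHat 1.4, Cufflinks 1.3, DESeq and the build Sscrofa10.2 are named in the submitters' processing notes, and the counting tool is not given in the sources used here. Reads in exons shared by isoforms appear to be counted for each, so 1 transcript per gene is described. RefSeq's Sscrofa11.1 gene table, matched by Entrez ID, gave the symbols and nothing else (19127 transcripts matched). Of 81 symbols there that meet the name rule, 6 had no row in the counts, namely ATP5C1, ATP5H, NDUFB10, NDUFB4, SDHA and SDHAF3. Coordinates are those of the deposited annotation, counted from 1.

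The quasi-likelihood test of edgeR 4.0.16 (R 4.3.3) was run on the counts, after filterByExpr at a minimum count of 10, with TMM scaling, robust fitting and the group as sole term, and with Benjamini-Hochberg adjustment over 18783 transcripts and a threshold of 0.05. SE are those implied by the F statistic, and the 95% intervals follow from them. Ratios within a library used a pseudocount of 0.5. Alternatives used DESeq2 1.42.0, limma 3.58.1, other scalings, no filter, 1 transcript per gene, a replicate block and each library left out. The tests were run on simulated data first.

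The genes and lists were chosen with earlier results of these data known. Given in full were the genes that passed, a set of subunits named by role whatever their result, and the largest and smallest log2 change per complex. From each further list up to 4 members that passed were named, smallest p first. Some genes that these rules take in are not reported here. Replicate numbers mark different animals.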

Additional observations from a re-analysis of the deposited data

Results flagged for a closer look

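In groups of 4 animals, 3 genes given in full had 1 library far from the other 3, by Dixon's criterion on CPM. ATP5G2 was at 158 CPM in control replicate 1, where the other controls lay between 108 and 117. NDUFV2 was at 16.1 CPM in the same library, below the others at 21.1 to 22.0. ATP5SL was at 59.8 CPM in pregnant replicate 1, with the others between 49.7 and 51.0. These are 3 of 62 groups tested, and chance flags about 1 in 20. Of the 3, 2 lie in control replicate 1, the library in which 39 of the 75 genes were highest.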

How the results depend on the processing

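Against 0 higher and 3 lower genes of the 75, exactly 1 gene was higher with DESeq2-type size factors, DESeq2, limma voom or 1 transcript per gene, NDUFV2 each time, and 1 without both control replicate 1 and pregnant replicate 4 (NDUFA3, named after its values were seen). Lower genes numbered 14 with scaling by total count (18.7%, beside 17.5% of all transcripts) and 1 to 4 when 1 library was left out. They numbered 0 without both those libraries, which were picked for standing at the ends of this set. With 1 library out, the transcripts that passed ranged from 2864 to 4127, against 4009, and the median difference of the 75 from −0.15 to −0.04. Over the settings with libraries left out, both together included, the COX7A1 to COX7A2 log2 ratio differed by −0.36 to −0.11. Its unadjusted exact permutation p, 0.0286 with every library, reached up to 0.114, and with every library its adjusted p of 0.114 did not pass. Several genes near 0 changed sign, for a cause that was not tested. With scaling by total count, which moved the median of all transcripts by −0.13, NDUFS1 was at −0.13 and COX7A2 at −0.087. With libraries left out the log2 differences ran from −0.039 to 0.082 for NDUFS1, −0.060 to 0.15 for COX7A2, −0.26 to 0.10 for NDUFV1, −0.35 to 0.039 for COX7A1, −0.20 to 0.070 for COX6A1, −0.13 to 0.049 for NDUFA4 and −0.16 to 0.10 for NDUFAF1. With the replicate block 3883 transcripts passed, and 0 higher and 4 lower genes of the 75, ATP5G2 being added. The deviations of same-numbered animals had correlations of 0.245, −0.176, −0.0204 and 0.100. These lay within the range of differently numbered animals, −0.447 to 0.2595. They gave no sign of pairing by number but cannot exclude it. Of the 75 genes, 59 passed in no setting. With 4 animals a group, low genes such as UQCRB and COX8H have intervals wider than 2-fold.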
